A study of Homo sapiens with 3 samples.

Results

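The end of the long arm of human chromosome 14, in band 14q32, holds the imprinted DLK1-MEG3 domain and, next to the tip, the immunoglobulin heavy chain genes. Its 2956 peaks were defined by position, as the peaks of Spindlin1 and of C11orf84 whose summit lay on chromosome 14 at or beyond 99 Mb of genome build hg19. They are 0.893% of the 331107 peaks in both lists, and the stretch was chosen with earlier peak counts of these data in view. Of the members, 1203 came from the 153468 Spindlin1 peaks and 1753 from the 177639 C11orf84 peaks. The libraries were made by chromatin immunoprecipitation and sequencing from U2OS, a bone osteosarcoma cell line, grown without treatment and fixed with formaldehyde. Each antibody had 1 library, and the Input library without antibody was not used here. There was therefore no replicate check and no test. Intervals in brackets are exact 95% Clopper-Pearson limits, which cover counting error only and treat neighbouring peaks as independent, so they are likely too narrow.

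Spindlin1 is a chromatin reader whose Tudor-like domains bind methylated lysine on the tail of histone H3, and C11orf84, also called SPINDOC, is a protein partner of it. In the DLK1-MEG3 domain the parental copies are used differently. The protein-coding genes DLK1 (a Notch-like signalling protein), RTL1 (a retrotransposon-derived protein of the placenta) and DIO3 (a deiodinase that inactivates thyroid hormone) are expressed mainly from the paternal copy, and the noncoding MEG3 with its snoRNAs and miRNAs from the maternal copy. The heavy chain locus is cut and joined in B cells, where a V, a D and a J segment are brought next to the constant genes. An osteosarcoma line is not a cell type that does this.

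The RefSeq annotation of GRCh38.p14 lists 505 genes from BCL11B, a transcription factor gene of T cells and neurons, to the end of the chromosome, 76 of them protein-coding. From DLK1 to DIO3 it lists 122 genes, of which 54 are miRNAs and 47 are snoRNAs, including 9 of the SNORD113 and 31 of the SNORD114 family. The heavy chain segments follow the order constant, J, D and V toward the tip, with 9 constant genes, 27 D, 6 J and 48 V segments and 79 V pseudogenes. These names and counts are of another build than the peaks, so no peak was placed on a gene here.

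To show the sequence in which genes of the imprinted domain start, the 150 bases before the annotated start of 3 of them are given 5′ to 3′ on the strand of the gene, from RefSeq, GRCh38.p14. MEG3 and DIO3 lie on the plus strand and RTL1 on the minus strand, and MEG3 is given for the most upstream of its 3 entries. Capitals mark CG, the pair of bases at which human DNA is methylated and whose methylation separates the parental copies of imprinted domains.
MEG3: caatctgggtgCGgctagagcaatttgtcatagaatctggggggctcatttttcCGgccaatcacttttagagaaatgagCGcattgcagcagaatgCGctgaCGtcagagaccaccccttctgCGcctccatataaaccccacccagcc
RTL1: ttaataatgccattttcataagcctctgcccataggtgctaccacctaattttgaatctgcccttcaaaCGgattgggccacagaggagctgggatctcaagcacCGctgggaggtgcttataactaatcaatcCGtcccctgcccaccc
DIO3: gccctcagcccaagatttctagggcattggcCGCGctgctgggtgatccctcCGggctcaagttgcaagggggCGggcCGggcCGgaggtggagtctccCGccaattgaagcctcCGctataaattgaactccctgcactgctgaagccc

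The printed stretches held 6 CG for MEG3, 3 for RTL1 and 8 for DIO3. In the whole promoter entries of 300 bases the counts were 19, 6 and 28, and 42.9%, 66.3% and 26.2% of all 35116 promoter entries held at least as many. The promoters from BCL11B to the end of the chromosome were rich in CG as a group. Their 166 entries, of 129 genes, had a median of 23 CG and a G and C content of 67.2%, beside 14 CG and 58.7% over all entries.

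Peaks of both proteins were dense at the end of the chromosome. From 99 Mb to the last peak, 8.25 Mb or 9.35% of the span of chromosome 14 that holds peaks, lay 29.6% of its Spindlin1 peaks and 35.6% of its C11orf84 peaks. This is 146 Spindlin1 and 212 C11orf84 peaks per Mb, beside 35.8 and 39.6 per Mb in the rest of chromosome 14 and 52.3 and 60.5 per Mb on the other chromosomes. Position alone set the members, and the stretch was proposed with these counts known, so the density is a description. The peaks covered 317 kb for Spindlin1 and 528 kb for C11orf84, which is 3.84% and 6.40% of the stretch.

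The peaks were spread unevenly along it. In steps of 1 Mb from 99 Mb the Spindlin1 list held 45, 128, 144, 97, 133, 255, 371 and 28 peaks, with 2 more after 107 Mb. The C11orf84 list held 88, 181, 235, 127, 181, 341, 547 and 53 in the same steps and 0 after 107 Mb. Both lists were therefore fullest from 105 to 106 Mb and sparse beyond it. The densest 100 kb of Spindlin1, from 104.6 to 104.7 Mb, held 62 Spindlin1 and 79 C11orf84 peaks. The densest of C11orf84, from 105.6 to 105.7 Mb, held 52 and 88. Neither lies in the DLK1-MEG3 domain or in the heavy chain locus. The 4.4 Mb between those loci held 900 of the 1203 Spindlin1 and 1265 of the 1753 C11orf84 peaks.

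**Figure D1:**
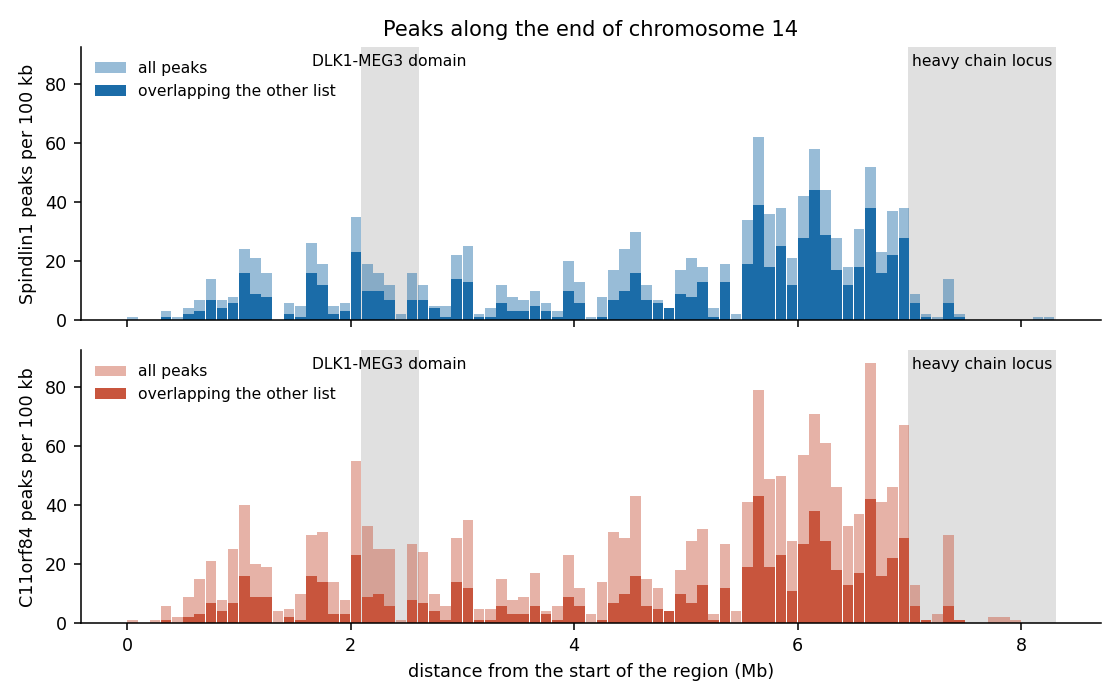
Peaks per 100 kb (y axes) by distance in Mb from the start of the stretch at its 99 Mb limit (x axis), Spindlin1 above and C11orf84 below. Pale bars count all peaks, dark bars those that overlap a peak of the other list, and grey bands mark both loci; the densest bars, 62 for Spindlin1 and 88 for C11orf84, lie between the bands.

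C11orf84 peaks outnumbered Spindlin1 peaks through most of the stretch. There were 1.46 C11orf84 peaks per Spindlin1 peak (1.35 to 1.57), beside 1.11 (1.05 to 1.16) in the rest of chromosome 14 and 1.16 (1.15 to 1.16) on the other chromosomes. Of the 83 windows of 100 kb, 66 held more C11orf84 peaks, 10 held more Spindlin1 peaks, 3 held equal numbers and 4 held neither. The excess was in part one of closely spaced intervals. When intervals of a list at most 500 bp apart were joined, 1155 C11orf84 and 918 Spindlin1 regions remained, a ratio of 1.26 (1.15 to 1.37), beside 1.09 in the rest of chromosome 14 and 1.11 over all chromosomes.

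The first Mb, from 99 to 100 Mb, had the highest ratio of the 8 full steps, 1.96 (1.35 to 2.87) from 88 C11orf84 and 45 Spindlin1 peaks. Its interval overlapped that of the stretch without it, 1.44 (1.33 to 1.55). Its 88 C11orf84 peaks were above the 39.6 per Mb of the rest of chromosome 14 and the 60.5 of the other chromosomes, but below the number in each of the next 6 steps. Its 45 Spindlin1 peaks were likewise fewer than in each of those steps. Of its C11orf84 peaks 24 (27.3%, 18.3 to 37.8) overlapped a Spindlin1 peak, and of its Spindlin1 peaks 23 (51.1%, 35.8 to 66.3) overlapped a C11orf84 peak. In the stretch without it these shares were 40.7% (38.3 to 43.1) and 58.5% (55.6 to 61.4), with intervals apart for C11orf84 only. Over all chromosomes they were 57.6% and 69.7%. Before 99 Mb, the step from 95 to 96 Mb had 64 C11orf84 and 27 Spindlin1 peaks, a ratio of 2.37 (1.49 to 3.87), so the first Mb was not the highest on the arm.

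At the 99 Mb limit itself no peak lay close by. The last Spindlin1 peak before it, chr14:98933605-98933776, had a fold enrichment of 5.64 and the first after it, chr14:99074646-99074817, one of 6.16. For C11orf84 the last before, chr14:98851601-98851831, had a fold of 4.42 and the first after, chr14:99059887-99060084, one of 7.36. Fold enrichment is the authors' ratio of the summit to the local background, and each fold is relative to its own list.

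The peaks of the chromosome end rested on few fragments. Summit depth, the number of fragments over the highest point, was recovered from the deposited fold and p-value. It had a median of 10 in both lists (interquartile range 9 to 11 in each), beside 12 and 13 in the rest of chromosome 14 and 11 and 12 on the other chromosomes for Spindlin1 and C11orf84. Only 3 Spindlin1 and 5 C11orf84 members had 20 fragments or more, and the deepest had 29 and 21. A −log10 q of at least 10, the authors' value, was reached by 17 Spindlin1 members (1.41%, 0.83 to 2.25) where 11.8% of all Spindlin1 peaks did, and by 38 C11orf84 members (2.17%, 1.54 to 2.96) where 15.7% of all C11orf84 peaks did. Fold enrichment ranged from 2.82 to 11.2 with a median of 5.13 for Spindlin1, and from 2.96 to 10.8 with a median of 5.40 for C11orf84. Median widths were 217 bp (Spindlin1) and 245 bp (C11orf84), near the 229 and 248 bp over all chromosomes. The largest widths were 988 and 1416 bp.

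**Figure D2:**
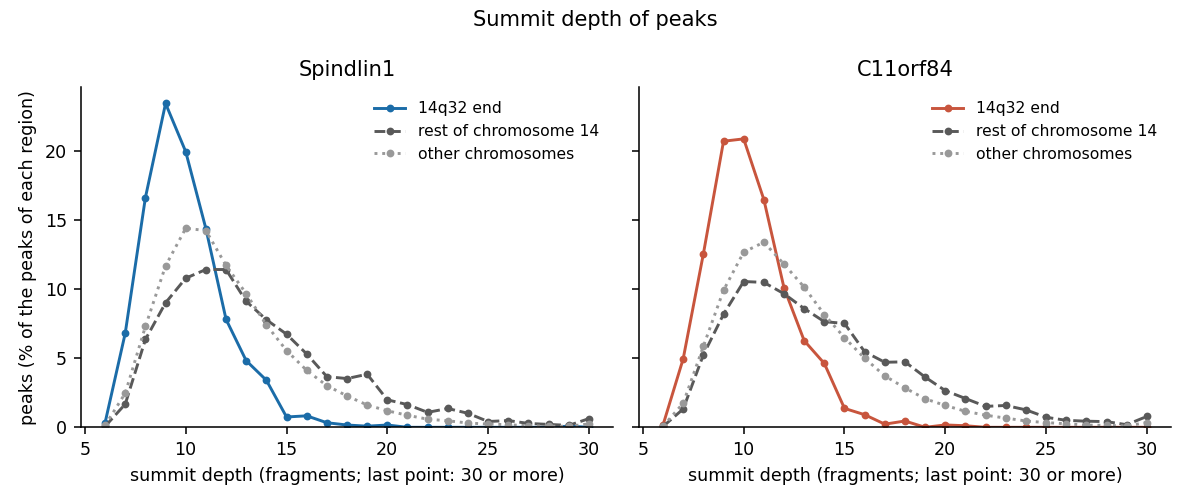
Share of peaks in percent (y axis) at each summit depth in fragments (x axis, depths of 30 or more pooled), Spindlin1 left and C11orf84 right. The coloured line is the end of chromosome 14, the dashed line the rest of the chromosome and the dotted line the other chromosomes; the coloured lines lie to the left, with medians of 10 fragments in both lists.

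Background was low along with depth. The lowest background in a list, here called the floor, stood for 0.949 fragments for Spindlin1 peaks and 1.04 for C11orf84 peaks. Of the members 77.8% (75.3 to 80.1) of Spindlin1 and 79.4% (77.4 to 81.3) of C11orf84 lay at the floor, beside 24.3% and 28.9% in the rest of chromosome 14 and 48.4% and 49.4% on the other chromosomes. Background reached 2 times the floor or more at 18 Spindlin1 and 26 C11orf84 members (1.5% and 1.48%), and at 19.4% of the peaks of either list in the rest of chromosome 14. The part of background in peak number, ratio and overlap was not tested beyond the values at the floor given below.

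The shift in depth and background did not begin at 99 Mb. In each of the 8 full steps of 1 Mb of the stretch, between 71.1% and 89.3% of Spindlin1 peaks and between 68.5% and 90.6% of C11orf84 peaks were at the floor. In the 8 Mb before it, from 91 Mb, a limit placed after the values along the chromosome were seen, 72.4% of 268 Spindlin1 and 76.2% of 386 C11orf84 peaks were at the floor, with a median depth of 10 in both lists. Below 91 Mb these shares were 19.4% of 2595 and 22.4% of 2779, with a median depth of 13 and 14. Of the 48 steps with at least 10 peaks below 91 Mb, 5 for Spindlin1 and 6 for C11orf84 had over 50% of peaks at the floor. C11orf84 peaks per Spindlin1 peak were 1.44 (1.23 to 1.69) from 91 to 99 Mb and 1.07 (1.01 to 1.13) below 91 Mb. Steps of 1 Mb below that limit varied, so no start of the excess at 91 Mb is shown. The ratio was 1.68 (0.966 to 2.99) from 90 to 91 Mb and 1.49 (1.10 to 2.04) from 24 to 25 Mb. From 56 to 57 Mb it was 0.483 (0.236 to 0.943). Density from 91 to 99 Mb was 33.5 Spindlin1 and 48.2 C11orf84 peaks per Mb, beside 36.0 and 38.6 below 91 Mb. The values from 91 to 99 Mb were far below the 146 and 212 per Mb from 99 Mb on.

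**Figure D3:**
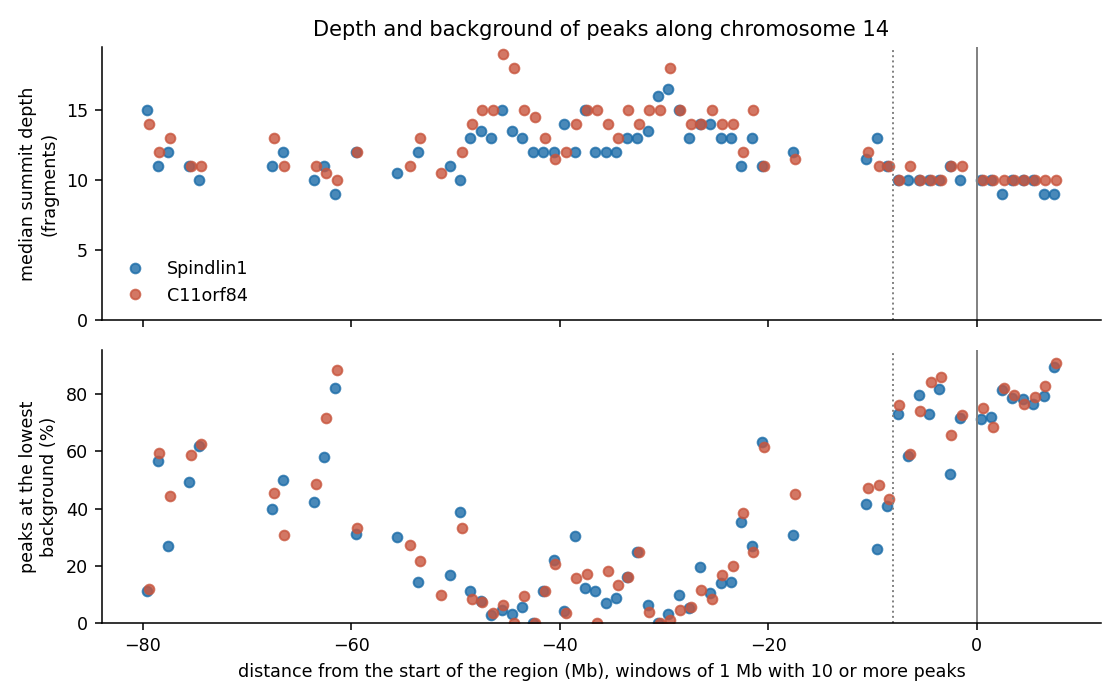
Median summit depth in fragments (upper y axis) and percent of peaks at the lowest background (lower y axis) in windows of 1 Mb with at least 10 peaks, by distance in Mb from the start of the stretch (x axis, negative toward the centromere). The solid line marks the start at 99 Mb and the dotted line 91 Mb; windows right of the solid line hold 68.5% to 90.6% of peaks at the lowest background.

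Spindlin1 and C11orf84 peaks met less often at the chromosome end than over all chromosomes. Of the Spindlin1 members 701 (58.3%, 55.4 to 61.1) overlapped a C11orf84 peak by 1 bp or more, where 69.7% of all Spindlin1 peaks did. Of the C11orf84 members 701 (40.0%, 37.7 to 42.3) overlapped a Spindlin1 peak, where 57.6% of all C11orf84 peaks did. Both intervals lay wholly below the background share. In the rest of chromosome 14 the shares were 61.3% (59.5 to 63.1) and 53.8% (52.1 to 55.6). The intervals of the end and of this rest overlapped for Spindlin1 but not for C11orf84. The rest pools unlike stretches. From 91 Mb to the start of the end the shares were lower than among the members, 38.1% (32.2 to 44.2) and 26.4% (22.1 to 31.1). Below 91 Mb they were higher, 63.7% (61.8 to 65.5) and 57.6% (55.8 to 59.5). Both stretches had intervals apart from those of the members in either list. In bases, 140 kb were common to both lists, 44.3% of what Spindlin1 covered and 26.6% of what C11orf84 covered, beside 65.9% and 51.2% over all chromosomes.

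Peaks without overlap more often lay near the other list than such peaks did over all chromosomes. Of the 502 unshared Spindlin1 members 359 (71.5%) had a C11orf84 peak within 1 kb, where 47.1% of all unshared Spindlin1 peaks did. Of the 1052 unshared C11orf84 members 590 (56.1%) had a Spindlin1 peak within 1 kb, where 45.5% of all unshared C11orf84 peaks did. The stretch was also denser in peaks than the other chromosomes, and the part of density in these shares was not tested. Only 40 Spindlin1 members (3.33%) had no C11orf84 peak within 5 kb, where 8.36% of all Spindlin1 peaks had none. For C11orf84 the number was 141 (8.04%), where 10.9% of all C11orf84 peaks had none. The rest of chromosome 14, where peaks were sparser, had 16.0% and 18.4%.

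Overlap varied less with summit depth at the chromosome end than in the rest of chromosome 14 or over the other chromosomes as a whole. Among Spindlin1 peaks at the floor, 56.7% (50.1 to 63.0) of members with 8 or fewer fragments overlapped a C11orf84 peak, beside 53.9% (52.9 to 54.8) on the other chromosomes. With 9 to 10 fragments the values were 57.7% (52.8 to 62.4) and 61.3% (60.7 to 61.9), and with 11 to 12 they were 58.8% (51.6 to 65.7) and 70.7% (70.0 to 71.3). With 13 or more they were 59.5% (47.9 to 70.4, 79 members) and 84.4% (83.8 to 84.9). Against the other chromosomes as a whole, the shares of the shallowest group thus had nearly equal values and those of the deepest lay far apart. The deepest group has no upper limit. Fragments numbered 15 or more at 11 of its 79 members but at 6875 of its 16939 peaks on the other chromosomes. At 13 fragments alone the shares were 59.5% (43.3 to 74.4) and 78.8% (77.7 to 79.8). In the rest of chromosome 14 the 4 shares, from the shallowest group, were 41.8% (32.9 to 51.1), 44.0% (37.9 to 50.3), 59.4% (51.9 to 66.5) and 77.5% (69.3 to 84.4). Against these the members had higher shares up to 10 fragments and lower ones above, and only the 9 to 10 group had intervals apart.

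For C11orf84 the members with 8 or fewer fragments overlapped a Spindlin1 peak in 34.2% (28.5 to 40.2), beside 34.6% (33.6 to 35.5) on the other chromosomes. With 9 to 10 fragments the shares were 37.6% (33.7 to 41.7) and 43.0% (42.4 to 43.6). With 11 to 12 they were 39.4% (34.4 to 44.6) and 53.1% (52.5 to 53.8), and with 13 or more 48.1% (40.2 to 56.2, 160 members) and 73.3% (72.8 to 73.9). In the rest of chromosome 14 the 4 shares were 28.7% (21.3 to 37.1), 30.7% (25.7 to 36.1), 38.5% (32.4 to 44.8) and 65.9% (59.2 to 72.2), with intervals apart from those of the members in the deepest group only. Depth within that group was not matched. Fragments numbered 15 or more at 27 of the 160 members and at 99 of 217 peaks in the rest of chromosome 14. At 13, at 14 and at 15 or more fragments taken alone, the intervals of these 2 regions overlapped. These groups by depth were chosen after the data were seen.

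**Figure D4:**
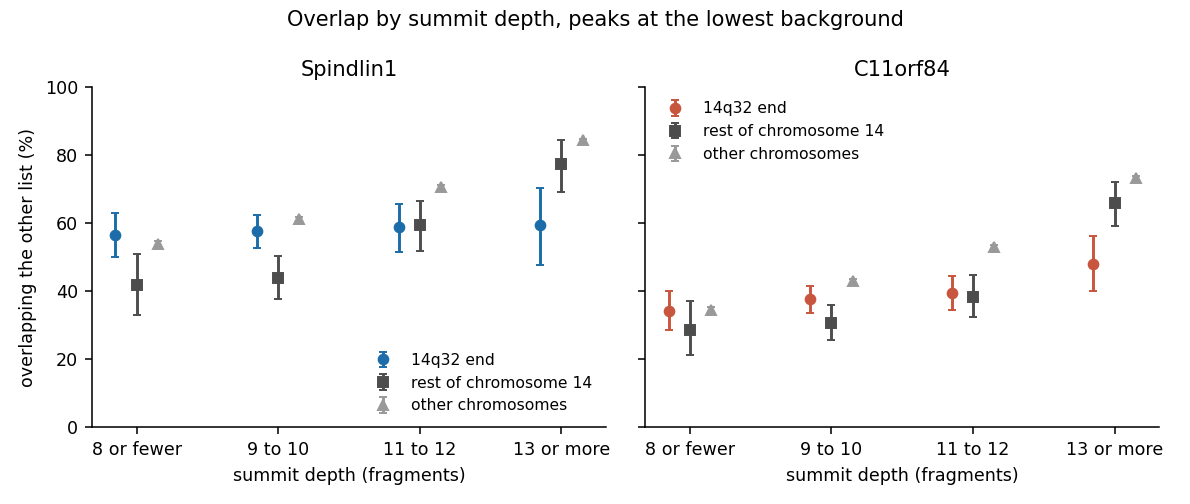
Percent of peaks at the lowest background that overlap the other list (y axis) by summit depth in fragments (x axis), Spindlin1 left and C11orf84 right, with exact 95% intervals for counting error as bars. Coloured circles are the end of chromosome 14, dark squares the rest of the chromosome and grey triangles the other chromosomes. In the deepest group, which has no upper limit, the circles stand at 59.5% and 48.1% and the triangles at 84.4% and 73.3%.

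Few members were highly significant by the authors' q, so overlap among them is known only roughly. Of the 17 Spindlin1 members with a −log10 q of at least 10, 13 (76.5%, 50.1 to 93.2) overlapped a C11orf84 peak of any height, beside 90.9% (90.5 to 91.3) on the other chromosomes, a value inside the members' interval. Of the 38 C11orf84 members 25 (65.8%, 48.6 to 80.4) overlapped a Spindlin1 peak, beside 83.7% (83.3 to 84.1), which lay above the members' interval. A partner that also reached 10 was rare, with 2 of 17 and 2 of 38, where over all chromosomes 49.0% and 30.9% had one.

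The peaks of highest fold in each list are given with the peak they overlapped in the other list. They were picked for their fold in 1 list, so a lower value of the partner follows from the choice and is not a finding. The highest fold of a Spindlin1 member, 11.2 with 29 fragments, was at chr14:102783276-102783504, between the loci. Its C11orf84 partner had a fold of 6.0 with 16 fragments. The next 3 Spindlin1 members had folds of 9.75 (chr14:101201546-101201926), 9.24 (chr14:105282146-105282668) and 9.24 (chr14:105512029-105512291), with 18, 17 and 17 fragments. Their C11orf84 partners had folds of 4.91, 7.85 and 4.91 with 9, 15 and 9 fragments. A fold of 8.72 was then shared by 3 Spindlin1 members, of which 1 overlapped a C11orf84 peak. The first by position, chr14:100205536-100205968, had none but a C11orf84 peak 210 bp away.

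For C11orf84 the highest fold, 10.8 with 21 fragments, was at chr14:105030359-105030762, over a Spindlin1 peak of fold 6.16 with 11 fragments. The second, chr14:105628710-105629122 with a fold of 10.3 and 21 fragments, was the pair of closest depth among these leading regions, with a Spindlin1 fold of 8.0 and 20 fragments. The third, chr14:100070542-100071213, had a fold of 9.85 and 20 fragments and overlapped 2 Spindlin1 peaks, the higher with a fold of 6.24. A fold of 9.33 with 18 fragments was shared by 3 members, of which 2 overlapped. The first by position were chr14:103553626-103554087, which lay 374 bp from the nearest Spindlin1 peak, and chr14:103696496-103696890, whose partner had a fold of 6.16. The widest members, chr14:104603827-104604814 of Spindlin1 (988 bp) and chr14:102962134-102963549 of C11orf84 (1416 bp), had folds of 8.16 and 6.57, and both overlapped the other list.

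Peaks far from the other list, with none of its peaks within 5 kb, had a median fold of 5.76 for Spindlin1, beside 5.28 for members that overlapped, and 5.40 in either group for C11orf84. Of Spindlin1, 4 far peaks shared the highest fold, 7.70 with 14 fragments, and the 3 first by position were chr14:99301054-99301236, chr14:102421969-102422202 and chr14:104151299-104151504. Their nearest C11orf84 peak was 23.7, 6.8 and 9.7 kb away. The 3 highest of C11orf84, chr14:100815196-100815427, chr14:103364695-103364899 and chr14:100856049-100856275, had folds of 8.84, 8.35 and 7.85, with the nearest Spindlin1 peak 16.5, 5.4 and 8.1 kb away.

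The DLK1-MEG3 domain was taken as 101.1 to 101.6 Mb. In GRCh38.p14 the MEG3 and DIO3 promoter entries begin at 100825858 and 101561245, farther apart than that window is long. The window thus leaves out part of the stretch from DLK1 to DIO3. It held 65 Spindlin1 and 111 C11orf84 peaks. This is 130 and 222 per Mb, close to the 146 and 212 per Mb of the whole stretch. Of its 111 C11orf84 peaks 0 reached a −log10 q of 10, beside 15.7% over all chromosomes and 2.17% in the whole stretch. A count of 0 allows a share of up to 3.27% by the exact interval, which takes in the 2.17%. The count thus cannot tell the domain from its surroundings. Of its 65 Spindlin1 peaks 1 reached it. Median depth was 9 fragments (Spindlin1) and 10 (C11orf84), and 76.9% and 78.4% of the domain's peaks were at the floor. Overlap was found for 34 Spindlin1 peaks (52.3%, 39.5 to 64.9) and 33 C11orf84 peaks (29.7%, 21.4 to 39.1), beside 58.9% (56.0 to 61.8) and 41.2% (38.7 to 43.6) in the stretch without both loci, with overlapping intervals in either list.

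Within the domain the peaks left a gap. In steps of 100 kb the domain held 19, 16, 12, 2 and 16 Spindlin1 peaks and 33, 25, 25, 1 and 27 C11orf84 peaks, so the fourth step, from 101.4 to 101.5 Mb, was nearly empty in both lists. Such sparse steps were not particular to the domain. From 103.1 to 103.2 Mb there were 1 and 3 peaks and from 104.4 to 104.5 Mb 2 and 4. The median step of the whole stretch held 10 and 15. The 100 kb just before the domain held more than any step within it, with 35 and 55 peaks. The highest Spindlin1 peak of the domain was chr14:101201546-101201926, described above, followed by chr14:101186920-101187105, over a C11orf84 peak of fold 5.40, and chr14:101350152-101350365, 99 bp from one. These are the first by position of 3 peaks of the domain with a fold of 7.70 and 14 fragments, of which 1 overlapped a C11orf84 peak. The 3 highest C11orf84 peaks, chr14:101203891-101204086, chr14:101301248-101301897 and chr14:101588218-101588719, all had a fold of 7.36 with 14 fragments. Of these the second overlapped 2 Spindlin1 peaks, the first lay 0.955 kb from one and the third 6.2 kb.

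The heavy chain locus, taken as 106.0 to 107.3 Mb, had fewer peaks per Mb than any full 1 Mb step from 99 to 106 Mb. It held 30 Spindlin1 and 53 C11orf84 peaks, or 23.1 and 40.8 per Mb. The change at its near edge was abrupt: the last 100 kb before it held 38 Spindlin1 and 67 C11orf84 peaks and its own first 100 kb held 9 and 13. The first 500 kb of the locus held 28 Spindlin1 and 48 C11orf84 peaks, and the 800 kb beyond, toward the tip, 2 and 5. Overlap was found for 14 Spindlin1 peaks (46.7%, 28.3 to 65.7) and 14 C11orf84 peaks (26.4%, 15.3 to 40.3). All of these lay in the first 500 kb, as did most peaks of the locus. Over all chromosomes the shares were 69.7% and 57.6%. In the stretch without both loci they were 58.9% (56.0 to 61.8) and 41.2% (38.7 to 43.6), with intervals overlapping those of the locus in either list. The step from 106.3 to 106.4 Mb held 14 of the 30 and 30 of the 53 peaks.

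The longest stretch without a peak of either list, 323 kb, ran from 106.411 to 106.734 Mb in this locus. Beyond it the C11orf84 list ended at chr14:106918994-106919214 with a fold of 7.36, and the Spindlin1 list had only chr14:107154950-107155237, with a fold of 7.70 and 236 kb from the nearest C11orf84 peak, and its last peak, chr14:107252859-107253073, with a fold of 5.28. The highest Spindlin1 peak of the locus, chr14:106048973-106049269, had a fold of 8.0 with 20 fragments over a C11orf84 peak of fold 5.56 with 14, and the third, chr14:106098347-106098723, a fold of 6.24. The highest C11orf84 peak was chr14:106000306-106000552 (fold 8.35), without overlap. After it and the one named above, 4 peaks shared a fold of 6.87, of which 1 overlapped a Spindlin1 peak and the first by position, chr14:106326340-106326602, did not.

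**Figure D5:**
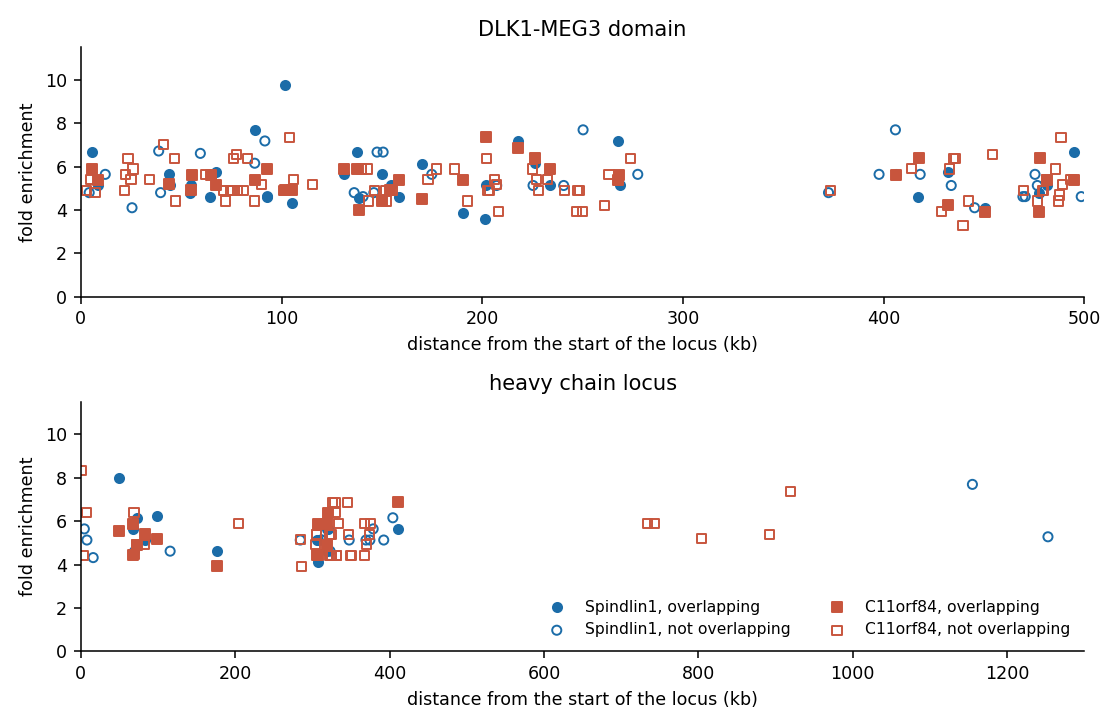
Fold enrichment (y axes, each fold relative to its own list) of every peak by distance in kb from the start of the locus (x axes), the DLK1-MEG3 domain above and the heavy chain locus below. Circles are Spindlin1 and squares C11orf84, filled where the peak overlaps the other list; the heavy chain locus holds 2 Spindlin1 and 5 C11orf84 peaks beyond its first 500 kb, all unfilled.

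Long arm ends of the same length on 22 other chromosomes give the range in which 14q32 stood. Its density was in the middle of that range, with 12 ends below and 10 above for Spindlin1 and 15 below and 7 above for C11orf84. Its ratio of 1.46 was exceeded by 3 ends, and the median was 1.19. Only 1 end for Spindlin1 and 2 for C11orf84 had a smaller share of peaks with a −log10 q of at least 10. The ends of chromosomes 10 and 21, also with few such peaks, and of chromosome 17, with many, were taken for comparison after these values were seen. Chromosome 21 had 1030 Spindlin1 and 1459 C11orf84 peaks, a ratio of 1.42 (1.31 to 1.54), overlap of 56.0% (52.9 to 59.1) and 38.5% (36.0 to 41.1) and a median depth of 10 in both lists, with every interval overlapping that of 14q32. Chromosome 10 had 774 and 1205 peaks, a ratio of 1.56 (1.42 to 1.71) and a lower overlap, 50.8% (47.2 to 54.4) and 32.4% (29.7 to 35.1). The end of chromosome 17 had 4587 and 4743 peaks, a ratio of 1.03 (0.993 to 1.08), overlap of 86.5% and 76.8% and a median depth of 12 and 13.

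The course of overlap with depth at these ends is given beside it. For Spindlin1 peaks at the floor the share in the shallowest and the deepest group was 51.9% and 60.4% on chromosome 10 and 60.3% and 62.5% on chromosome 21. For C11orf84 it was 25.2% and 39.0%, and 33.0% and 44.9%. At the end of chromosome 17 it went from 80.9% to 94.2% and from 47.4% to 90.2%. Depths within the deepest group differed here too. In the Spindlin1 list, 487 of its 1002 peaks on chromosome 17 had 15 or more fragments, beside 11 of 53 on chromosome 10 and 12 of 56 on chromosome 21.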

How the data were processed

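The deposited peak lists of Spindlin1 and C11orf84, 1 library each, were used. Reads were aligned with Bowtie 1.2.2 to build hg19 (per the submitters' processing notes). Which program called peaks, at which threshold and against which control, is not given in the sources used here. Total read numbers are unknown. The fold enrichment (a ratio), the −log10 p-value and q-value and the score of each peak are as the authors deposited them, the score being 10 times the −log10 q and not used further. Coordinates are printed counting from 1.

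Summit depth k and background λ were recovered by taking the fold to be (k + 1)/(λ + 1), with the p-value a Poisson tail. The largest error was 0.000174 in −log10 p. Peaks within 0.1% of the lowest background count as at the floor. The recovery was tested on simulated data, where 100% of 17165 peaks were returned, as was the overlap of 10000 intervals. The simulated folds and p-values were made with the same formulas. The test thus covers the computation and not whether the authors' peaks were called with this model. Shared peaks have at least 1 bp in common. Background shares are over chromosomes 1 to 22 and X.

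Regions were named by rule: in each list the 5 highest folds, the widest peak, the 3 highest folds at each locus and the 3 highest with none of the other protein inside 5 kb, the densest 100 kb, the longest gap and the peaks next to the limit. Members, lists and alternatives were chosen with earlier results of these data known. Gene names, order and promoters come from RefSeq, GRCh38.p14. Computation used pandas 2.3.3, SciPy 1.17.1 and NumPy 2.4.6 under Python 3.11.15, with matplotlib 3.10.9 for figures.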

Additional observations from a re-analysis of the deposited data

How the results depend on the processing

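Of 31 alternatives, 11 left their value within its interval or within 1.5 times its count and 20 moved it. With at least 50% of both intervals in common, overlap fell to 30.8% of Spindlin1 and 21.2% of C11orf84 members (47.5% and 41.1% over all chromosomes), and with summits at most 200 bp apart it was 46.7% and 32% (55.1% and 47.5%). When only peaks reaching a −log10 q of 10 were kept it was 11.8% of 17 and 5.26% of 38 peaks, the ratio was 2.24, that of the first Mb was 1 from 1 peak of each list, and the DLK1-MEG3 domain kept 1 Spindlin1 and 0 C11orf84 peaks and the heavy chain locus 1 and 1. Joining intervals at most 500 bp apart left 1155 C11orf84 regions and a ratio of 1.26. Limits 100 kb wider gave 112 and 190 peaks for the domain and 68 and 120 for the locus. In every such setting that gave a share, it stayed below that over all chromosomes. Starting 1 Mb farther along moved no value.

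No paired analysis was possible because each antibody has 1 library, and leaving out a replicate could not be done. The median member rested on 10 fragments in either list. Whether a member without a partner had fragments of the other library below the peak threshold was not tested. Whether peaks lie at promoters was not analysed here.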

Other observations

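Of the 22 other long arm ends, 6 had fewer than 5% of peaks of both lists with a −log10 q of at least 10, those of chromosomes 7, 10, 11, 19, 21 and X. Their C11orf84 peaks per Spindlin1 peak were 1.51, 1.56, 1.42, 1.48, 1.42 and 1.37, in that order. Their share of Spindlin1 peaks that overlapped a C11orf84 peak was 43.0%, 50.8%, 44.0%, 54.5%, 56.0% and 58.1%. With 14q32 at 1.46 and 58.3%, its ratio lay within the range of these 6 ends and its Spindlin1 overlap just above the highest of them, by less than counting error. The end of chromosome 8, with 49.9% of Spindlin1 peaks and 58.8% of C11orf84 peaks at such a q, had the lowest ratio of all ends, 0.939, and the highest Spindlin1 overlap, 89.2%. The groups of ends were formed after the data were seen.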
